A study of Mus musculus with 34 samples.

Results

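The genes described here encode the nuclear subunits of the mitochondrial respiratory chain and the ATP synthase, together with cytochrome c. They were chosen by symbol: every gene whose single platform symbol began with Nduf, with Sdh and one of the letters a to d, with Uqcr, with Cox and a digit from 4 to 8, or with Atp5, plus Cycs and Cyc1. This gave 103 probe sets for 75 of the 8251 genes named on the array. There were 29 genes of complex I, 4 of complex II, 8 of complex III with Cyc1, 1 cytochrome c gene (Cycs), 15 of complex IV and 14 of complex V. The other 4, Ndufaf1, Ndufaf4, Sdhaf1 and Sdhaf2, fit the letters of the rule but encode assembly factors, which help to build a complex and are not part of it. They are given as a group of their own. A further 10 probe sets carried several symbols, one of which fitted, and were not used.

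The respiratory chain passes electrons from NADH, through complex I, and from succinate, through complex II, to ubiquinone, then to complex III, to cytochrome c and, in complex IV, to oxygen. Complexes I, III and IV pump protons out of the mitochondrial matrix, and complex V, the ATP synthase, makes ATP as the protons flow back. Neurons depend on this ATP for ion pumping and synaptic transmission. The subunit genes measured here are in the nucleus, while a few core subunits are encoded in mitochondrial DNA and have no place in the rule.

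Affymetrix arrays, which read RNA through sets of short probes, measured RNA of the neocortex and of the hippocampus of juvenile male mice, with 1 array per region and mouse; the strain was not given in the sources used here. Males of postnatal day 23 received 3 intraperitoneal injections at intervals of 2 h, of saline (6 mice), of kainate at 15 mg/kg (5 mice) or of nicotine at 10 mg/kg (6 mice). Kainate is an agonist of glutamate receptors that provokes seizures, and nicotine is an agonist of nicotinic acetylcholine receptors. Mice still alive at postnatal day 30 were killed, so each group holds survivors only, and the 6 groups of 34 arrays are saline, kainate and nicotine neocortex and saline, kainate and nicotine hippocampus.

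Values are MAS5 signals on a linear scale. Every array had been scaled to a common mean, with a 2% trimmed mean of 1000.5 to 1000.6, and array medians ran from 375.75 to 438.6. A log2 fold change is a difference between group means of log2(signal + 16), with its standard error (SE). A gene was called at an adjusted p under 0.05, from limma with the Benjamini-Hochberg method over all 8695 probe sets tested. To be tested, a probe set needed a mean level above the lowest 30 percent of probe sets, a border at a signal of 128 in the neocortex, 131 in the hippocampus and 130 over both regions. Of the 75 genes, 69 passed. The 6 others were Ndufa12 and Ndufc2 of complex I, Cox5a, Cox7a1 and Cox8a of complex IV and Atp5j2 of complex V, with mean signals from 73.0 to 131.8. Cox5a and Cox8a encode widely used subunits, and whether their RNA or their probe sets account for the dim signal was not tested. Probe sets differ in sensitivity, so no gene's level is set against another's here. The probe set with the highest signal was Ndufb5 in complex I, Sdhb in complex II, Uqcrq in complex III, Cox6a1 in complex IV and Atp5md in complex V. Several probe sets were present for 21 genes, and the brightest was used. Of the 75 probe sets used, 56 had the plain name ending _at. The others, among them those of Cox6a1, Ndufa3, Ndufa5 and Ndufb5, had an added letter for the kind of probe set. Whether each of them reads 1 gene alone was not tested. Among the tested genes, the median coefficient of variation between arrays of a group ran from 10.3% in the nicotine neocortex to 13.2% in the kainate hippocampus. In bulk tissue, fewer cells of a type and less RNA per cell cannot be told apart.

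The promoters of many respiratory chain genes carry motifs for nuclear respiratory factor 1 (NRF1) and for ETS-family factors, one of which was named nuclear respiratory factor 2. To show such sequences, the 250 bases before the transcription start were searched on both strands in the RefSeq table (GRCm38.p6), which held 61 of the 75 genes. The palindromic NRF1 motif, GCGCA followed directly by its reverse complement TGCGC, stood in 4 of 61 genes (6.56%), against 0.877% of the 27025 genes in the table. With any base in place of the central A, read on both strands, it stood in 9 of 61 (14.8%) against 4.23%, a count that includes the exact palindromes. The ETS motif CCGGAAG stood in 21.3% against 7.83%, the SP1 motif GGGCGG in 44.3% against 35.4%, the cyclic AMP response element TGACGTCA in 4.92% against 1.77%, the YY1 motif AAGATGG in 1.64% against 5.18% and the E-box CANNTG in 62.3% against 69.3%. These are shares of letters found, not of sites bound. The 4 windows with the NRF1 motif are printed as examples of a feature that the rule did not use, in its exact form. A gene with several starts was counted if any of its windows held the motif. They lie at chr15:102671065-102671104 (Atp5g2, minus strand), chr5:108434425-108434464 (Atp5k, minus strand), chr5:115349096-115349135 (Cox6a1, minus strand) and chr4:24897955-24897994 (Ndufaf4, plus strand), and run 5′ to 3′ on the gene's strand with the motif in capitals.
Atp5g2: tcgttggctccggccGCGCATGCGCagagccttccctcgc
Atp5k: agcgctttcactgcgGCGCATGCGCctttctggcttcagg
Cox6a1: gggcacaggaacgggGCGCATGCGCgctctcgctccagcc
Ndufaf4: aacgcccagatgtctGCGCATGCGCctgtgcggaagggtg
Of these 4 genes, none was called in any comparison between groups. Their log2 fold changes with kainate in the hippocampus were 0.14 for Atp5g2, 0.16 for Atp5k, -0.19 for Cox6a1 and -0.13 for Ndufaf4, so 2 lay above 0 and 2 below.

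The first question was whether the genes differed between the regions of saline-injected mice, for which saline hippocampus was compared with saline neocortex. Cox6a2, the heart and muscle isoform of a complex IV subunit, was lower in the hippocampus, and Ndufa3, Ndufa5 and Atp5mpl were slightly higher. These were 3 calls in one direction and 1 in the other among the 69 tested genes, while 10.5% of all probe sets tested were called (5.36% higher, 5.19% lower). The share of the 69 called was thus not above the background.

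Cox6a2 is the isoform used in striated muscle, and in the brain its expression is known from parvalbumin interneurons, fast-spiking inhibitory cells. Its signal in the saline neocortex ran from 1143.8 over a median of 1532.1 to 1927.0, and in the saline hippocampus from 540.5 over 630.0 to 756.5. Every neocortical array lay above every hippocampal array, as for 2.93% of all probe sets. The mean signals were 1510 ± 260 and 640.6 ± 95.6 (SD, n = 6 each). The log2 fold change was -1.21 (SE 0.14), a 2.32-fold lower signal, with limma's adjusted p of 3.63e-08.

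The region difference of Cox6a2 was also present in the drug groups, a comparison added after the data were seen. In kainate mice the neocortical arrays read 1386.1, 1240.7, 1278.0, 1134.3 and 964.1, and the hippocampal arrays 635.2, 621.6, 810.9, 434.5 and 675.4. The regions again did not overlap, as for 4.51% of all probe sets in this direction. The log2 fold change was -0.92 (SE 0.15, limma's adjusted p = 3.6e-05). In nicotine mice the signal ran from 1062.9 over 1131.5 to 1560.6 in the neocortex and from 561.7 over 645.4 to 871.2 in the hippocampus. There the log2 fold change was -0.85 (SE 0.14, limma's adjusted p = 3.14e-05), again without overlap, as for 2.92% of all probe sets in this direction. The change of the region difference did not pass for either drug (0.29, SE 0.21, limma's adjusted p = 0.718 for kainate and 0.36, SE 0.20, limma's adjusted p = 0.994 for nicotine). Arrays were also grouped by clustering 27 array control probe sets into 4 clusters, and within the 3 clusters that held both saline regions the difference in Cox6a2 ran from -1.30 to -0.88.

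Cox6a1, the isoform of the same subunit in most other tissues, did not pass in this comparison. Its signal was 28088 ± 4764 in the saline neocortex and 29375 ± 3478 in the saline hippocampus (SD, n = 6 each). The groups overlapped, and the log2 fold change was 0.07 (SE 0.11, limma's adjusted p = 0.779).

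**Figure D1:**
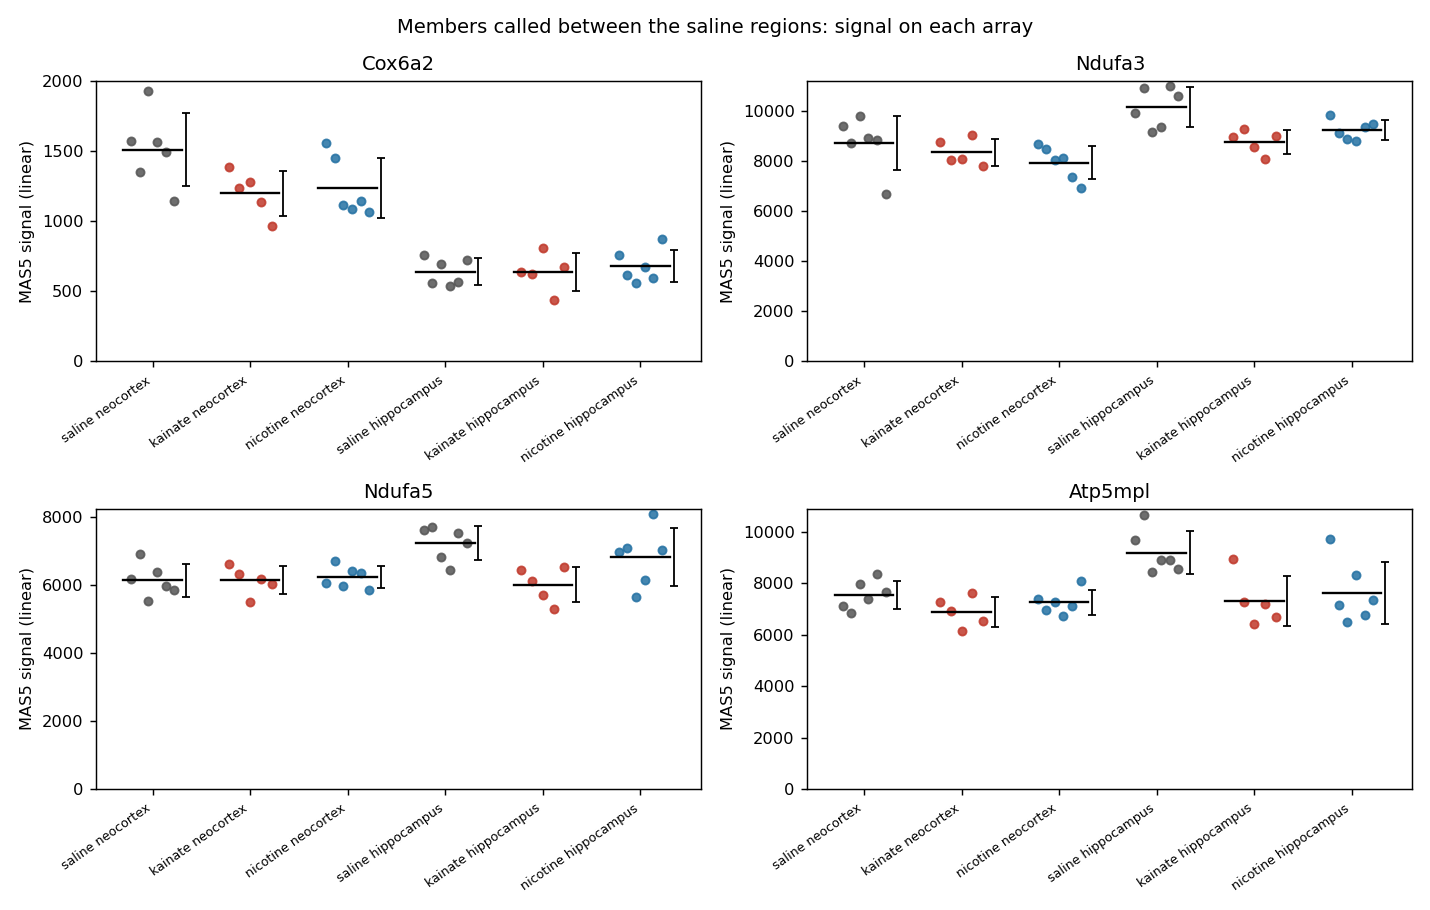
MAS5 signal (linear, vertical axis from 0) of the 4 genes called between the saline regions, on each array of the 6 groups; points are arrays, the horizontal line is the mean and the bar the SD. For Cox6a2 the hippocampal arrays of every treatment (434.5 to 871.2) lie below all neocortical arrays (964.1 to 1927.0), while for Ndufa3, Ndufa5 and Atp5mpl the saline hippocampus is the highest group and the difference is small.

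Ndufa3 and Ndufa5 encode accessory subunits of complex I, which surround its catalytic core. Ndufa3 ran from 6700.4 over 8892.0 to 9817.5 in the saline neocortex and from 9177.3 over 10254.6 to 10992.1 in the saline hippocampus. The groups overlapped, and 1 neocortical array was well below the rest. The hippocampus was higher by a log2 fold change of 0.22 (SE 0.07, limma's adjusted p = 0.0421). Ndufa5 ran from 5507.7 over 6060.8 to 6913.8 in the neocortex and from 6432.9 over 7379.1 to 7705.2 in the hippocampus. These groups overlapped as well, with a log2 fold change of 0.24 (SE 0.07, limma's adjusted p = 0.0339).

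Atp5mpl encodes a small membrane subunit of the ATP synthase. Its signal ran from 6868.0 over 7530.1 to 8347.8 in the saline neocortex and from 8459.3 over 8914.6 to 10680.2 in the saline hippocampus. The groups did not overlap, as for 3.28% of all probe sets in this direction, and the log2 fold change was 0.28 (SE 0.09, limma's adjusted p = 0.0267).

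The calls of Ndufa3 and Ndufa5 depended on single arrays and on settings, and that of Atp5mpl on single arrays. Ndufa3 was lost in 12 of 22 alternatives, Ndufa5 in 10 and Atp5mpl in 4, whereas Cox6a2 was called in all 22. Without saline hippocampus replicate 1 or replicate 2, 1 gene of the 69, Cox6a2, was called. Leaving out saline neocortex replicate 1, 2 or 5, or saline hippocampus replicate 5 or 6 left 2 calls, 1 of them Cox6a2. The second probe set of Ndufa3, which is dimmer, gave a log2 fold change of 0.07 (SE 0.18, limma's adjusted p = 0.881).

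In the drug groups these 3 genes gave values from -0.03 to 0.22. In nicotine mice, Ndufa3 was called again (0.22, limma's adjusted p = 0.0463) and did not overlap between regions, as for 3.06% of all probe sets in this direction. Ndufa5 gave 0.13 and Atp5mpl 0.06 in these mice. In kainate mice, Ndufa3 gave 0.07, Ndufa5 -0.03 and Atp5mpl 0.08. The change of the region difference did not pass for any of them, with limma's adjusted p of 0.719, 0.426 and 0.683 for kainate and at least 0.994 for nicotine. One other gene, Ndufa7, an accessory subunit of complex I, was called between the regions of kainate mice (0.40, SE 0.12, limma's adjusted p = 0.0257). In those mice 13.0% of all probe sets were called, and in nicotine mice 9.61%, against 2 of the 69 genes in each.

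The promoters of Ndufa3 and Ndufa5 are shown because these are the called genes that the RefSeq table holds; Cox6a2 and Atp5mpl are not among its entries. They lie at chr7:3617123-3617372 (plus strand) and chr6:24527691-24527940 (minus strand), GRCm38.p6, and are printed 5′ to 3′ on the gene's strand up to the last base before the start.
Ndufa3: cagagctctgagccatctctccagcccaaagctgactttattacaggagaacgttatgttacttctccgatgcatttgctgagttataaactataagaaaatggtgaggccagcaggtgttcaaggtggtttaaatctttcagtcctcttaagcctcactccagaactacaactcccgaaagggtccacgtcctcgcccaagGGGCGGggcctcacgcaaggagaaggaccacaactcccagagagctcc
Ndufa5: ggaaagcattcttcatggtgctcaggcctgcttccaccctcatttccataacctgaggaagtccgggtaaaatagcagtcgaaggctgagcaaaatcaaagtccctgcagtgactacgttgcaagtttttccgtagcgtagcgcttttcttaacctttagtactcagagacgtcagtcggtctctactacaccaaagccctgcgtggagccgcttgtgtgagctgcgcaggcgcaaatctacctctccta
The capitals mark the SP1 motif GGGCGG, which stood 48 to 43 bases before the start that the promoter entry of Ndufa3 uses. The annotated span of Ndufa3 begins earlier, at chr7:3617347, so the end of its printed window lies within the gene. The window of Ndufa5 shown here held no exact match to the palindromic NRF1, ETS, YY1, SP1 or cyclic AMP motifs, but 1 to the NRF1 motif with a free base, on the opposite strand and not in capitals. A second start of Ndufa5 in the table has the SP1 motif in its window, so this gene is counted in the SP1 share. E-boxes are not marked.

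Over all 69 genes the saline regions were close. The median log2 fold change was 0.09, against 0.00 over all probe sets tested, and 16 genes lay below 0. By complex the median was 0.15 for complex I, 0.02 for complex II, 0.13 for complex III, 0.01 for complex IV and 0.12 for complex V. Uqcrb, the ubiquinone-binding subunit of complex III, had the highest value (0.42, SE 0.17, limma's adjusted p = 0.118). Cox5b of complex IV and Ndufv3 of complex I did not overlap between the regions and just missed the threshold, with log2 fold changes of 0.22 and 0.29 and limma's adjusted p of 0.0595 and 0.0597.

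Markers of several cell types moved between the saline regions. Of 5 genes known from parvalbumin interneurons, 3 were lower in the hippocampus, namely Cox6a2 itself, Pvalb (-0.49, limma's adjusted p = 0.0023) and the neuropeptide gene Tac1 (-0.79, limma's adjusted p = 0.0181). The summed signal of the 5 genes, which includes that of Cox6a2, did not overlap between the regions. It ran from 9663 to 11718 in the neocortex and from 6451 to 7583 in the hippocampus. Of 12 neuronal markers 3 were lower in the hippocampus, of 7 astrocyte markers 4 were higher and of 5 oligodendrocyte markers 3 were higher. Of 3 choroid plexus and ependyma markers 1 was higher (list median 1.36), and of 4 dentate granule cell markers 2 were higher. Of 11 microglial, 6 endothelial and 2 blood markers 0 were called. Over all probe sets 5.36% were higher and 5.19% lower. The choroid plexus sum ran from 1012 to 2584 in the neocortex and from 2119 to 10388 in the hippocampus. The neuronal sum ran from 111819 to 124843 in the neocortex and from 95429 to 115639 in the hippocampus. The part of these markers in the region differences was not tested.

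The next question was how kainate and saline mice differed on postnatal day 30. In the hippocampus most of the genes had slightly lower values in kainate than in saline mice, in all complexes, but 0 of 69 were called; 2.79% of all probe sets were called (1.84% higher, 0.955% lower). The median log2 fold change of the 69 genes was -0.17, against 0.01 over all probe sets tested, and 60 genes lay below 0. An unadjusted p under 0.05 was reached by 22 genes, all lower (31.9%), against 6.84% of all probe sets lower and 7.36% higher. These shares are not at equal precision, since the median SE was 0.11 for the 69 genes and 0.17 for all probe sets. An equal change thus passes more easily among the 69 genes, and they were not compared with probe sets of equal brightness. The smallest adjusted p was 0.057, for Atp5j.

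By complex, the median log2 fold change was -0.20 for complex I, with 25 of 27 genes below 0. It was -0.18 for complex II, -0.19 for complex III with 8 of 8 below 0, -0.15 for complex IV with 10 of 12, and -0.14 for complex V with 9 of 13. Cycs, which encodes cytochrome c, gave -0.11 (SE 0.17), and the assembly factors had a median of -0.08. Among the assembly factors Ndufaf1 was lowest, at -0.18, and Sdhaf1 highest, at -0.03.

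**Figure D2:**
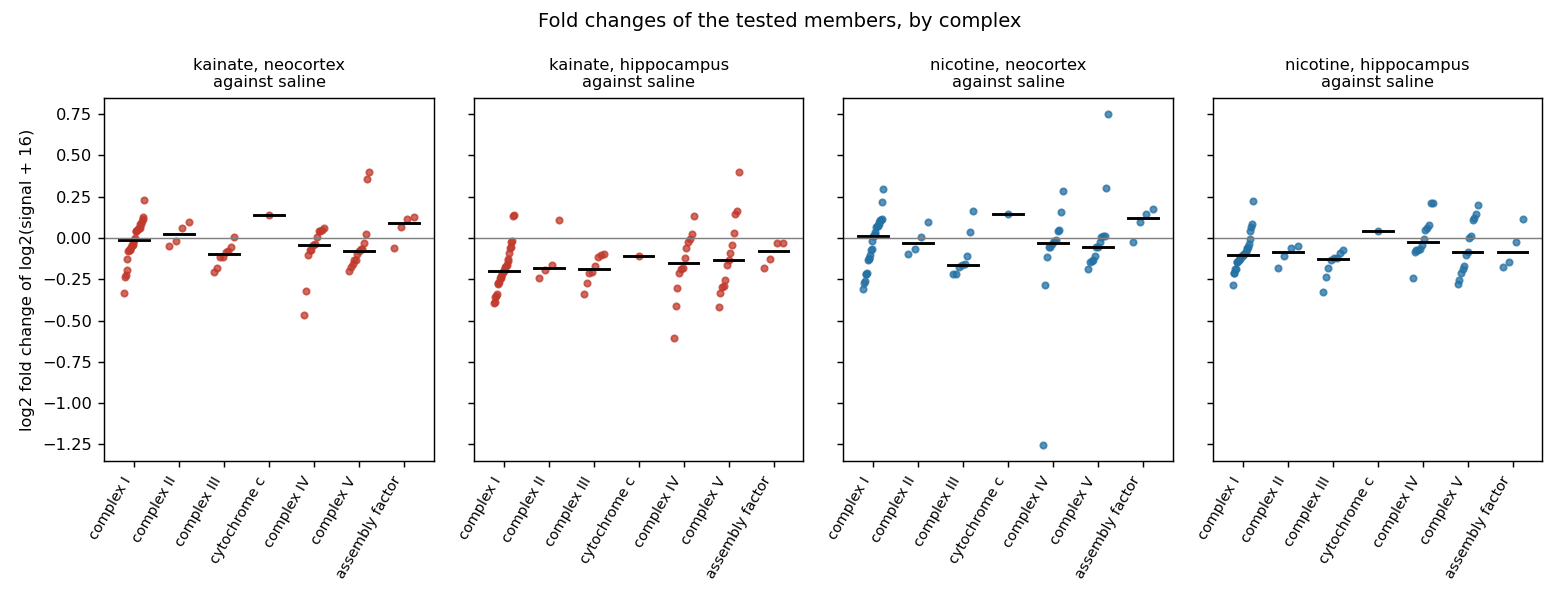
Log2 fold change against saline (vertical axis, on log2(signal + 16)) of each tested gene, grouped by complex along the horizontal axis, in 4 panels for kainate and nicotine in each region; points are genes and the line is the median of the complex. In the kainate hippocampus the medians run from -0.20 for complex I to -0.08 for the assembly factors, while in both neocortex panels they lie on both sides of 0.

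The shift was seen array by array. For each array, the median over the 69 genes of the log2 difference from the saline mean of the region was taken. In the saline hippocampus these medians ran from -0.04 to 0.07 and in the kainate hippocampus from -0.25 to -0.10, so that the groups did not overlap. In the nicotine hippocampus they ran from -0.24 to -0.01. Over all probe sets the same medians lay between -0.00 and 0.04 in the kainate hippocampus. Kainate replicates 3 and 4 were the lowest of the 5, and replicates 3 and 4 were also the lowest of the saline group (both -0.04) and of the nicotine group (-0.24 and -0.12). All 6 of these arrays lay in the same cluster by control probe sets, cluster 3. That cluster also held replicate 2 of the kainate group (-0.11) and of the nicotine group (-0.03), neither among the lowest of its group. Within clusters 1, 2 and 3 the median difference of the genes between kainate and saline hippocampus was -0.15, -0.14 and -0.16. These differences rest on 1 to 3 arrays per group, and why these 6 arrays were low was not tested. Since the saline arrays define the zero, their place around 0 is no result.

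**Figure D3:**
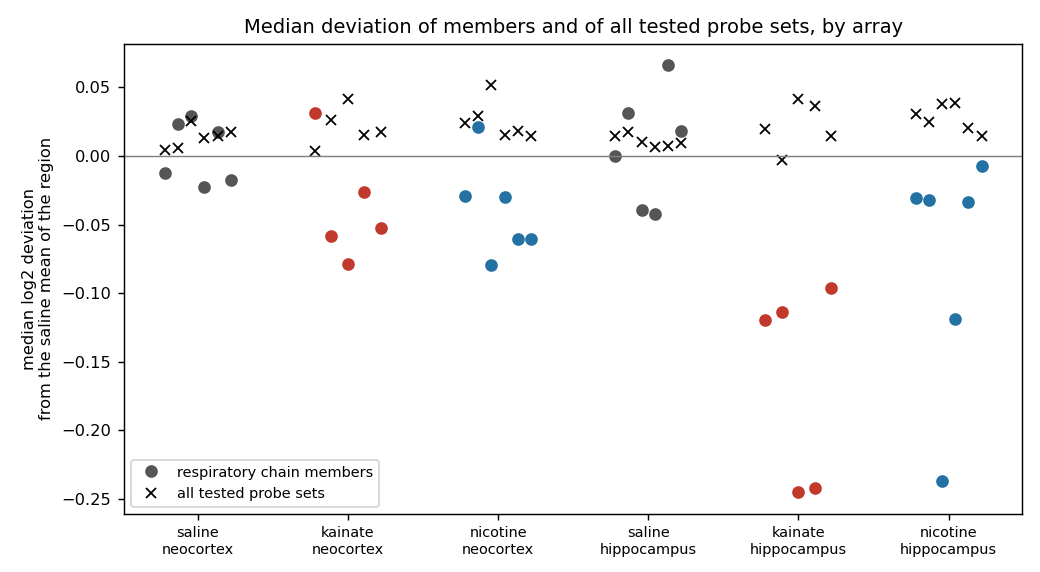
For each of the 34 arrays, by group along the horizontal axis, the median log2 difference from the saline mean of its region (vertical axis) over the 69 respiratory chain genes (circles) and over all tested probe sets (crosses). The 5 kainate hippocampus arrays lie between -0.25 and -0.10 for the respiratory chain genes, below every saline hippocampus array, while the crosses stay between -0.00 and 0.05 in all groups.

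The smallest adjusted p values belonged to complex V and complex I, and Atp5j and Atp5c1 of complex V came first. Atp5j encodes coupling factor F6 in the stalk of the ATP synthase. Its signal ran from 5502.5 over 5638.9 to 6526.7 in the saline hippocampus and was 5544.4, 4918.4, 4717.4, 4175.3 and 4244.1 in the kainate hippocampus. All kainate arrays except replicate 1 lay below every saline array. With kainate the estimate was -0.30 (SE 0.08, limma's adjusted p = 0.057).

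Atp5c1 encodes the gamma subunit, the rotating shaft of the ATP synthase. Its signal ran from 8226.3 over 9165.8 to 10922.6 with saline and was 7555.3, 8163.4, 7018.6, 6430.6 and 8979.4 with kainate. Replicate 5 lay within the saline range and the others below it. The log2 fold change was -0.29 (SE 0.09, limma's adjusted p = 0.0864), and its second probe set gave -0.12 (limma's adjusted p = 0.727).

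Atp5l encodes subunit g of the membrane part. Its signal ran from 15682.4 over 16109.0 to 19202.0 with saline and was 13822.2, 14529.1, 13858.6, 12594.3 and 15636.1 with kainate. The groups did not overlap, with kainate replicate 5 just below the lowest saline array. The log2 fold change was -0.25 (SE 0.08, limma's adjusted p = 0.0945). Atp5mpl, described above, was 8942.8, 7267.6, 6435.8, 7211.6 and 6712.4 with kainate, and only replicate 1 lay within the saline range. Its log2 fold change was -0.34 (SE 0.10, limma's adjusted p = 0.0942).

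The other complex V genes were less uniform. Atp5o encodes the oligomycin sensitivity conferring protein, which joins the catalytic head to the stator. It had the lowest log2 fold change of the complex, at -0.42 (SE 0.22, limma's adjusted p = 0.412), with signals from 5513.9 to 11082.2 with saline and from 4213.2 to 7670.5 with kainate. Atp5pb, the stator subunit b, had the highest, at 0.40 (SE 0.38, limma's adjusted p = 0.705). Atp5a1, the alpha subunit of the catalytic head, was 18947 ± 581 (SD, n = 6) with saline and 17814 ± 964 (SD, n = 5) with kainate. Of the genes for the proton-carrying c ring, Atp5g1 gave -0.14 (SE 0.29) and Atp5g2 0.14 (SE 0.16), and neither passed.

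Complex I contributed 13 of the 22 genes with an unadjusted p under 0.05. Ndufv1 encodes the core subunit that binds NADH and the flavin. Its signal ran from 13950.7 over 15605.8 to 16636.1 with saline and was 12895.1, 12181.4, 14132.4, 12857.0 and 12600.0 with kainate. One kainate array, replicate 3, lay within the saline range. The fit gave -0.25 (SE 0.08, limma's adjusted p = 0.0942).

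Ndufs1 encodes the largest core subunit, which carries iron-sulfur clusters. Its signal ran from 3196.2 over 4089.4 to 4787.2 with saline and was 3895.6, 3678.5, 2353.1, 2434.1 and 3294.4 with kainate, so that replicates 3 and 4 alone lay below every saline array. The log2 fold change, -0.39 (SE 0.13, limma's adjusted p = 0.141), was the lowest of complex I. Within the 3 clusters of arrays with both groups the difference in Ndufs1 was -0.39, 0.28 and -0.49, of which the value above 0 compares 1 array with 1. Ndufb10, an accessory subunit of the membrane arm, was 4395.2, 3868.1, 2983.1, 2988.9 and 4337.6 with kainate against 4092.0 to 5198.3 with saline, and replicates 3 and 4 were again the lowest. Its log2 fold change was -0.35 (SE 0.11, limma's adjusted p = 0.0996).

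Ndufa3 and Ndufa5, which were higher in the hippocampus of saline mice, had log2 fold changes of -0.21 and -0.27 with kainate (limma's adjusted p = 0.112 and 0.128). Both comparisons use the same saline hippocampus arrays, so high values there enter both. Ndufa13 and Ndufb5, further accessory subunits, did not overlap between saline and kainate hippocampus. Ndufa13 ran from 2754.3 to 3102.6 with saline and from 2361.1 to 2637.9 with kainate, and its estimate was -0.19 (SE 0.07, limma's adjusted p = 0.187). Ndufb5 ran from 14413.2 to 16575.7 and from 12352.8 to 14151.8, and its estimate was -0.17 (SE 0.07, limma's adjusted p = 0.234). Ndufa7 had the highest value of complex I, at 0.14 (SE 0.10, limma's adjusted p = 0.576).

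Complexes II to IV gave values of the same size. In complex II, Sdhb, the iron-sulfur subunit of succinate dehydrogenase, gave -0.16 (SE 0.08, limma's adjusted p = 0.333), and Sdha, its flavoprotein subunit, ran from 1274.4 to 1594.3 with kainate and from 1520.2 to 1858.4 with saline. The membrane anchors Sdhd and Sdhc gave -0.24 and 0.11, the lowest and the highest value of the complex. In complex III, Uqcrh, the hinge protein that docks cytochrome c1, ran from 8017.4 over 8246.8 to 9351.2 with saline and was 7804.8, 7568.0, 6452.7, 7046.5 and 7580.3 with kainate. The groups did not overlap, and the log2 fold change was -0.20 (SE 0.07, limma's adjusted p = 0.12). Uqcr10, a small subunit of the complex, had the lowest value, at -0.34 (SE 0.11, limma's adjusted p = 0.132), and Uqcrc1, a core subunit, the highest, at -0.10. Cyc1, which encodes cytochrome c1, gave -0.17 (SE 0.09, limma's adjusted p = 0.383), while its dimmer probe set gave 0.19.

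In complex IV, Cox7a2, the widely expressed isoform of subunit VIIa, ran from 14779.8 over 14994.0 to 16608.6 with saline and was 13816.1, 14189.4, 12257.0, 13057.7 and 14243.1 with kainate. The groups did not overlap, and the log2 fold change was -0.18 (SE 0.08, limma's adjusted p = 0.301). Cox7a2l, a relative that joins complexes III and IV into supercomplexes, gave 0.03, and Cox7a1, the muscle isoform, was below the filter. Cox6a2, the gene with the large region difference, gave -0.03 (SE 0.16, limma's adjusted p = 0.972), and Cox6a1 gave -0.19. The other isoform genes were Cox4i1, at -0.41 (SE 0.33), Cox6b1, at 0.14, the testis isoform Cox6b2, at -0.61 (SE 0.42), and the muscle isoform Cox8b, at -0.30; none passed. The value of Cox4i1 rests on kainate replicate 2, which read 155.8. The other kainate arrays read 592.3 to 1281.8 and the saline arrays 686.7 to 1128.3, so no direction is given for Cox4i1. The dimmer probe set of Cox6b2 gave 0.73, opposite in sign to the one used, so no direction can be given for this gene. For Ndufv2, an iron-sulfur core subunit of complex I, the probe sets also differed in sign (-0.17 for the one used and 0.26 for the dimmer one).

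In all, 5 genes were lower without overlap in the kainate hippocampus, namely Atp5l, Ndufa13, Cox7a2, Ndufb5 and Uqcrh. Among all probe sets 1.18% were lower without overlap.

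**Figure D4:**
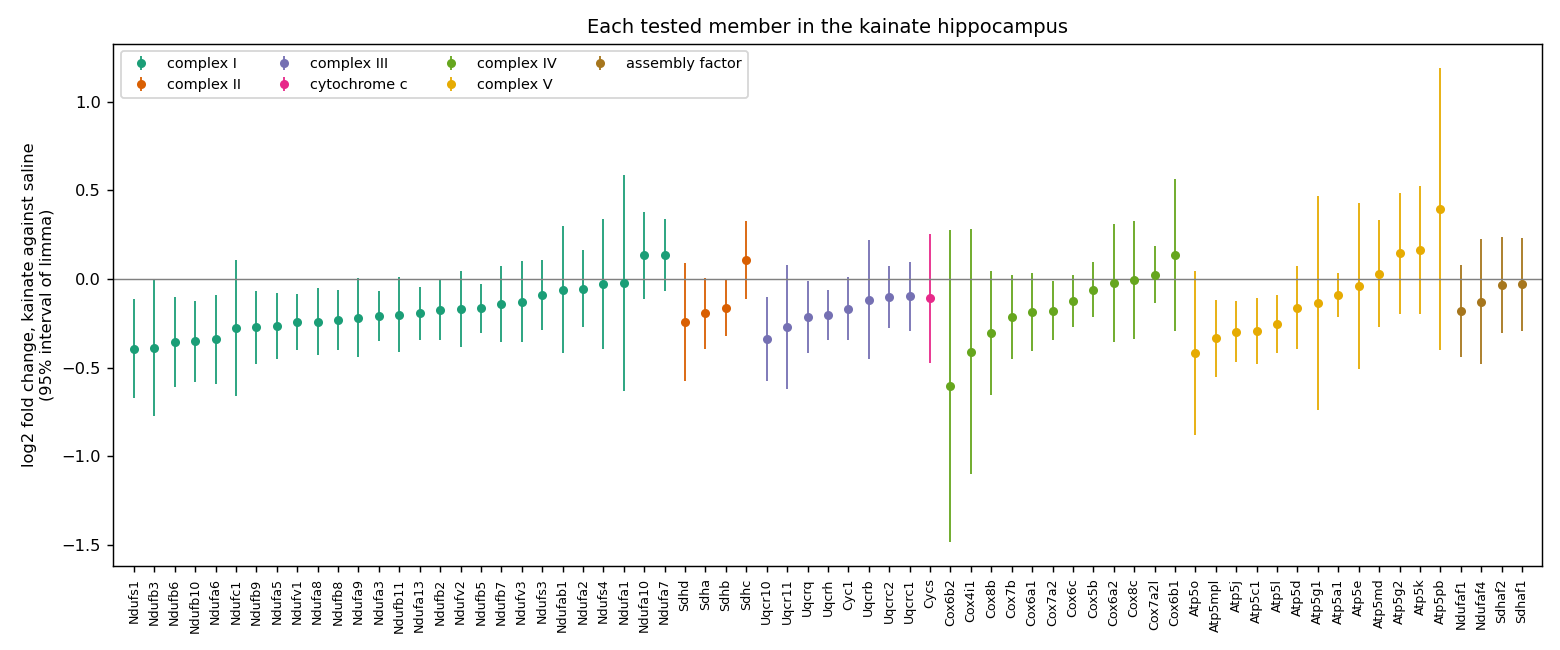
Log2 fold change of each of the 69 tested genes, kainate against saline hippocampus (vertical axis, on log2(signal + 16)), ordered by complex and by value along the horizontal axis; points are limma estimates and bars their 95% intervals. Of the 69 points 60 lie below 0, and the estimates run from -0.61 (Cox6b2) to 0.40 (Atp5pb).

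**Figure D5:**
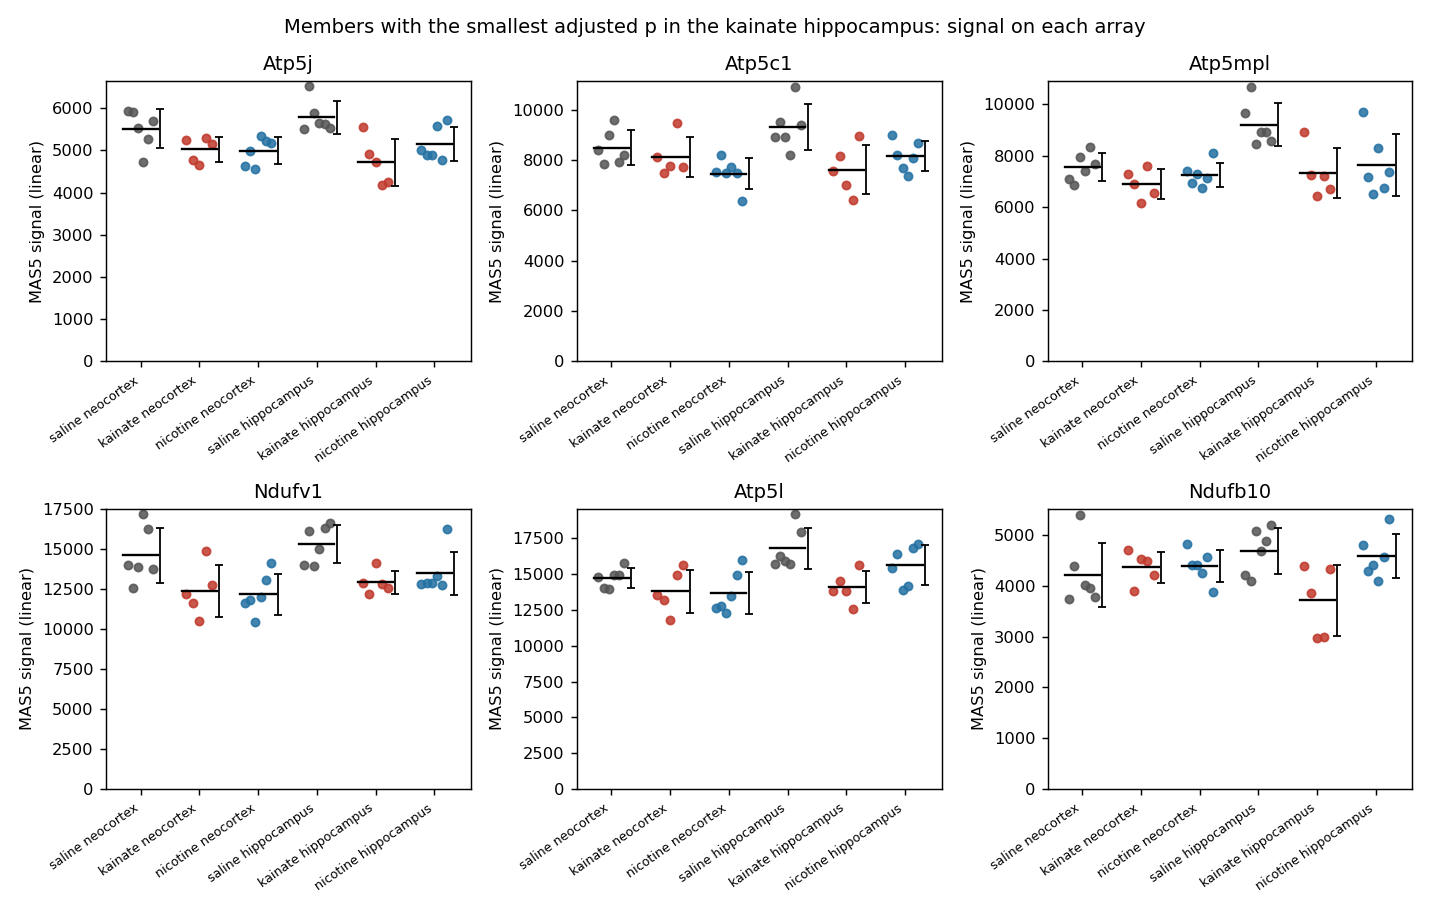
MAS5 signal (linear, vertical axis from 0) on each array of the 6 groups for the 6 genes with the smallest adjusted p in the kainate hippocampus; points are arrays, the line is the mean and the bar the SD. In each panel most kainate hippocampus arrays lie below the saline hippocampus arrays, and for Atp5l all 5 do.

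Scaling bears on the number of calls in this comparison. Array medians were 380.65 to 390.9 in the saline hippocampus, 403.1 to 438.6 in the kainate and 394.25 to 434.55 in the nicotine hippocampus, without overlap between saline and either drug. When each array was centred on its median, the median of all probe sets moved to -0.10 and that of the 69 genes to -0.28. Then 15 of the 69 were called, all lower. With quantile normalization, other pseudocounts, other filters or the mean of all probe sets of a gene, no respiratory chain gene was called. With all 34 arrays in the fit 6 were called, with the clusters of arrays on control probe sets as a block 2 (Ndufb9 and Atp5mpl), and without kainate hippocampus replicate 1 also 2 (Atp5mpl and Atp5j). Within the 3 clusters that held both groups the median difference of the genes was -0.15, -0.14 and -0.16. Among the 48 genes with a mean signal of at least 2000 it was -0.20.

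Markers of glial cells moved strongly in the same comparison. All 11 tested microglia and macrophage markers were higher in the kainate hippocampus, with a median log2 fold change of 1.82, and the sum of the 12 measured ran from 17525 to 20305 with saline and from 49007 to 78040 with kainate. The filter used all 17 hippocampal arrays, so a marker high with kainate passes it more easily. In the neocortex 10 of these markers were tested. Of 7 astrocyte markers 5 were higher (median 0.60), and their sum ran from 76007 to 90905 and from 125690 to 157695. Of 12 neuronal markers 1, the vesicular GABA transporter gene Slc32a1, was lower (-0.43, limma's adjusted p = 0.0273), with a list median of -0.10 and sums from 95429 to 115639 with saline and from 91277 to 102635 with kainate. Of 4 dentate granule cell markers 1, Calb1, was lower (-0.63). Of 5 parvalbumin interneuron, 5 oligodendrocyte, 6 endothelial, 4 choroid plexus and 2 blood markers 0 were called, with list medians from -0.15 to 0.02. The part of these markers in the values of the respiratory chain genes was not tested.

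Other genes of energy metabolism were read from lists, whose medians ran from -0.14 to 0.03. In the kainate hippocampus, 0 of 15 genes of the tricarboxylic acid cycle and pyruvate dehydrogenase were called, with a median log2 fold change of -0.14. For 9 mitochondrial carriers and porins 0 were called (median -0.10), for 12 genes of mitochondrial biogenesis 0 (median 0.03) and for 13 antioxidant enzymes 0 (median -0.01). Of 5 further assembly genes 1, Lrpprc, which stabilises mitochondrial mRNAs, was lower (-0.41, SE 0.11, limma's adjusted p = 0.0476). Of 16 genes of glycolysis and lactate 1, the inducible hexokinase gene Hk2, was higher (1.40, SE 0.30, limma's adjusted p = 0.0097), while the median was -0.10.

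In the neocortex, kainate gave 0 calls among the 69 genes, and 0.0115% of all probe sets, 1 in all, were called. The median log2 fold change was -0.04, against 0.00 over all probe sets, and 41 genes lay below 0. An unadjusted p under 0.05 was reached by 4 genes in the lower direction (Ndufa7, Uqcr10, Ndufv1 and Cox6a2) and by 1, Atp5k, in the higher, against 2.63% and 2.93% of all probe sets. Ndufa7 had the smallest adjusted p, 0.821, with a log2 fold change of -0.34 (SE 0.13) and mean signals of 12864 ± 1665 with saline (SD, n = 6) and 10313 ± 2205 with kainate (SD, n = 5). Cox6a2 gave -0.32 (SE 0.14, limma's adjusted p = 0.874) and its groups overlapped.

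By complex, the neocortical medians with kainate were -0.02 for complex I, 0.02 for complex II, -0.10 for complex III, -0.04 for complex IV and -0.08 for complex V. The extremes were Ndufb3 at 0.23 and Ndufa7 in complex I, Sdhd at 0.10 and Sdhb at -0.05 in complex II, Uqcr10 at -0.21 and Uqcrc2 at 0.00 in complex III, and Cox6b2 at -0.47 and Cox6c at 0.06 in complex IV. In complex V, Atp5pb was at 0.40 and Atp5g2 at -0.20. Cycs gave 0.14, and the assembly factors ran from -0.06 (Ndufaf1) to 0.13 (Ndufaf4). None of these passed, and the array medians of the 69 genes ran from -0.08 to 0.03.

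Whether the kainate difference itself differed between the regions was tested as an interaction. Of the 69 genes 0 passed, against 0.794% of all probe sets, and 8 lower and 1 higher reached an unadjusted p under 0.05 (4.29% and 4.69% of all probe sets). The median of the interaction was -0.13. The smallest adjusted p was 0.279, for Ndufb10, with an interaction of -0.41 (SE 0.14, on the log2 scale). Ndufa7 gave the opposite sign, 0.47 (SE 0.17, limma's adjusted p = 0.282). A difference between the regions in the response to kainate was thus not detectable for any single gene at this number of arrays.

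For nicotine, 0 of the 69 genes were called in the neocortex and 0 in the hippocampus, and 0% of all probe sets were called in either. In the hippocampus the median log2 fold change was -0.09, against 0.01 over all probe sets, with 53 genes below 0; 9 genes reached an unadjusted p under 0.05, all lower, against 2.73% of all probe sets lower and 3.07% higher. Kainate and nicotine were compared with the same saline arrays, so their fold changes are not independent. Uqcrh ran from 7061.4 over 7328.1 to 7787.3 with nicotine, below all saline arrays (8017.4 to 9351.2), as for 0.0805% of all probe sets, and its log2 fold change was -0.18 (SE 0.06, limma's adjusted p = 0.851). Atp5mpl gave -0.28 (SE 0.10) and Ndufv1 -0.19 (SE 0.07), both with an adjusted p of 0.851.

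The lowest value in the nicotine hippocampus was that of Uqcrb, at -0.33 (SE 0.15), and the highest that of Ndufs4, an accessory subunit of complex I, at 0.22 (SE 0.17). By complex the medians were -0.11, -0.09, -0.13, -0.02 and -0.09 for complexes I to V, and Cycs gave 0.04. The other extremes were Ndufa6 at -0.29 in complex I, Sdhd at -0.18 and Sdhc at -0.05 in complex II, Uqcrc1 at -0.07 in complex III, Cox6b2 at -0.24 and Cox4i1 at 0.21 in complex IV and Atp5g2 at 0.20 in complex V. The assembly factors ran from -0.17 (Sdhaf1) to 0.12 (Sdhaf2). Cox6a2 was 679.8 ± 116 (SD, n = 6) with nicotine and 640.6 ± 95.6 with saline.

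In the nicotine neocortex the median was -0.02, against 0.01, with 38 genes below 0. An unadjusted p under 0.05 was reached by 11 genes in the lower and 2 in the higher direction, against 4.6% and 5% of all probe sets. Complex III had the lowest median, -0.16, and 4 of its 8 genes, Uqcrq, Uqcrc1, Uqcrc2 and Uqcr10, were among the 11, with log2 fold changes from -0.22 to -0.16. The smallest adjusted p was 0.404, shared by Ndufv1 (-0.26, SE 0.09), Ndufs1 (-0.22, SE 0.08) and Cox6b2 (-1.25, SE 0.45). The Cox6b2 signal ran from 27.3 to 397.2 with nicotine and from 226.5 to 798.2 with saline, and the lowest array was nicotine replicate 5. Without that array the log2 fold change was -0.78 (limma's adjusted p = 0.617), and over the mean of all its probe sets it was -0.32 (limma's adjusted p = 0.683). Atp5pb was the highest gene, at 0.75 (SE 0.28, limma's adjusted p = 0.418). In complex I the values ran from -0.31 (Ndufa7) to 0.30 (Ndufb3), in complex II from -0.10 (Sdhc) to 0.10 (Sdhd) and in complex III from -0.22 (Uqcr11) to 0.16 (Uqcrb). Cox8c was highest in complex IV, at 0.28, and Atp5c1 lowest in complex V, at -0.19. Cycs gave 0.14, and the assembly factors ran from -0.02 (Ndufaf1) to 0.18 (Sdhaf2).

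The nicotine difference between the regions was tested in the same way. Of the 69 genes 0 passed, with a median interaction of -0.05 and 3 genes lower and 1 higher at an unadjusted p under 0.05, against 1.81% and 1.97% of all probe sets.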

How the data were processed

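RNA from 17 mice was measured in 2 regions. The deposited values are MAS5 signal intensities (tool named in the submitters' processing notes, its version not given in the sources used here). MAS5 combines matched and mismatched probes and scales each array, so bright genes that rise lower all others on that array. Both regions came from the same mice, but no label says which arrays share one, so regions were compared unpaired.

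Of 12488 probe sets, 66 controls were left out. Gene symbols are GEO's platform annotation, and a gene is given by its probe set with the highest mean log2 value. limma 3.58.1 in R 4.3.3 (lmFit, eBayes with trend) was fitted on all probe sets, over the 17 arrays of a region for the drug comparisons and over all 34 otherwise, and was tested on simulated data. Members and gene lists were chosen with earlier results of these data known. Named genes are all called genes, the highest, lowest and brightest of each complex, isoform pairs and genes whose probe sets disagree; those with the smallest p were added after their values were seen. Alternatives covered pseudocount, filter, scaling, blocks, probe sets and left-out arrays. Figures used matplotlib 3.10.9. Precision is limited by the number of arrays: the median SE of the 69 genes was 0.11 with kainate in the hippocampus, against 0.17 over all probe sets. It was also smaller than over all probe sets in the other drug comparisons, which bears on every share at an unadjusted p.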

Additional observations from a re-analysis of the deposited data

Results flagged for a closer look

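In 132 combinations of 22 genes and 6 groups, 10 held 1 array that stood apart from the others of its group by Dixon's criterion, and chance alone gives about 1 in 20. Several enter values given above. Ndufa3 read 6700.4 on saline neocortex replicate 6, below the next array, and Atp5j read 6526.7 on saline hippocampus replicate 2, above the others. Among the other complex I and IV genes, Ndufv1 read 16266.3 on nicotine hippocampus replicate 6 and Cox6a1 31218.0 on nicotine neocortex replicate 6, each the highest of its group, and the first enters the nicotine hippocampus value of Ndufv1. Cox7a1 read 244.1 on nicotine hippocampus replicate 3, the highest array of a gene below the filter, and Cox7a2l read 2577.7 on the same array, the lowest of its group. Cox7a2 read 16608.6 on saline hippocampus replicate 5, the top of the saline range with which kainate did not overlap. Atp5g1 read 285.9 on saline neocortex replicate 1, the lowest, Cycs 1762.7 on kainate neocortex replicate 3, which enters its value of 0.14 there, and Cyc1 16401.5 on nicotine neocortex replicate 2, both the highest.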

How the results depend on the processing

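Cox6a2 was called lower in the saline hippocampus under all 22 alternatives, with log2 fold changes from -1.29 to -1.12. For kainate in the hippocampus the count of called genes, 0 of 69, became 15 with median centring and 5 with the replicate block. It became 2 with the control cluster block and 6 with all 34 arrays in the fit. With quantile normalization, other pseudocounts, other filters or the mean of all probe sets of a gene it stayed at 0. The cause of these changes was not tested. The genes' median went to -0.28 with median centring, which moved the median of all probe sets by 0.11, to -0.10. Between the saline regions the 4 calls became 2 with median centring, 7 with the control cluster block and 2 with only the compared groups, and the median was 0.13 and 0.027 within clusters 1 and 3. The interaction median for kainate went to -0.23 with median centring. The kainate neocortex median was -0.0024 within cluster 2, and the nicotine neocortex median was -0.061 over the 48 brighter genes. Replicate numbers did not meet the criterion for pairing, a correlation over 0.1 in every same-numbered pair, since these ran from -0.17 to 0.28. Same-numbered arrays of a region did share a control cluster, except kainate neocortex replicate 5 and saline hippocampus replicate 2. A shared batch by number was thus not excluded, and the main fits did not account for it. The replicate block gave the 5 calls named for kainate in the hippocampus adjusted p values from 0.0159 to 0.0322 (limma), and it gave 4 calls between the saline regions and 0 in the other comparisons except kainate in the hippocampus.

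Leaving out 1 array in turn gave 0 to 2 calls and medians from -0.19 to -0.14 for kainate in the hippocampus, and 1 to 6 calls and medians from 0.082 to 0.11 between the saline regions. The medians were -0.058 to -0.014 for kainate and -0.056 to -0.015 for nicotine in the neocortex, -0.12 to -0.046 for nicotine in the hippocampus, and -0.16 to -0.11 and -0.061 to -0.020 for the interactions of kainate and of nicotine.

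Several values changed sign, not all of them near 0. With the mean of all probe sets, Cox6c gave -0.071 (kainate neocortex). Cox6b2 gave 0.43 in place of -0.61 (kainate hippocampus) and Atp5c1 0.074 in place of -0.19 (nicotine neocortex), and both main values were the lowest of their complex. With median centring, Uqcrc2 gave -0.0082 (kainate neocortex), Sdhc -0.0036 (kainate hippocampus) and Cycs -0.020 (nicotine hippocampus). With the control cluster block, Sdhc gave 0.010 and Cycs -0.0039 (nicotine hippocampus), and with the replicate block Sdhaf1 gave 0.0020 (kainate hippocampus). With 1 array left out, Uqcrc2 ran from -0.036 to 0.065 (kainate neocortex), Sdhaf1 from -0.096 to 0.039 and Cycs from -0.20 to 0.0063 (kainate hippocampus), Cycs from -0.050 to 0.16 (nicotine hippocampus) and Ndufaf1 from -0.11 to 0.029 (nicotine neocortex). Cox5a, Cox8a and the other genes below the filter were not tested.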

Other observations

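Genes of glycolysis, which feeds the respiratory chain, were divided between the saline regions. Of 16 tested genes, 1 was higher and 4 were lower in the hippocampus, while of all probe sets 5.36% were higher and 5.19% lower in that comparison. Pfkl, the liver-type isoform of phosphofructokinase, was higher (0.44, limma's adjusted p = 0.0001), while the muscle type Pfkm (-0.33, limma's adjusted p = 0.0128) and the platelet type Pfkp (-0.45, limma's adjusted p = 0.0003) were lower. Of the lactate dehydrogenase subunits, Ldha (-0.25, limma's adjusted p = 0.0475) and Ldhb (-0.47, limma's adjusted p = 0.0017) were lower. In the tricarboxylic acid cycle, where the share called was near that of all probe sets (10.5%), 1 of 15 genes, Suclg1, a subunit of succinyl-CoA synthetase, was higher (0.31, limma's adjusted p = 0.0244), and 1, Dlst of the 2-oxoglutarate dehydrogenase complex, was lower (-0.25, limma's adjusted p = 0.0362). Lrpprc, which was lower with kainate in the hippocampus, was higher in the saline hippocampus than in the saline neocortex (0.44, limma's adjusted p = 0.009), and both comparisons use the same saline hippocampus arrays.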
